A study of Mus musculus with 24 samples.

Results

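The 10 genes described here encode the kinase mTOR, the subunits that define its complexes, and proteins that pass nutrient signals to it or carry its signal onward. They were taken by symbol from the normalized table: Mtor, Rptor, Rictor, Larp1, Eif4ebp1, Eif4ebp2, Sesn1, Sesn3, Rps6kb1 and Tsc2. These are 10 of the 15160 genes listed, and all 10 were among the 13336 genes with enough counts to be tested. Their raw counts ran from 59 reads (Sesn1 in WT_MR_7615) to 4411 reads (Larp1 in KO_MR_7631).

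Liver RNA came from male mice of 5 months that were killed after a 4 h fast. Wild type (WT) mice carried the floxed Nfe2l2 allele (NRF2fl/fl) and no Cre. NRF2 KO mice carried the same floxed allele and Cre recombinase under the albumin promoter (NRF2fl/(alb)), which removes exon 5 of Nfe2l2 in the liver. The paper holds that the Nfe2l2 mRNA left there most likely comes from resident macrophages. Methionine made up 0.86% of the control diet (Con) and 0.17% of the diet for methionine restriction (MR). Both had elemental amino acids in place of protein, contained no cysteine, and were fed for 8 weeks from 8 weeks of age, followed by calorimetry and a recovery period before tissue was taken. Values are for 22 mice with 1 library each: 5 per diet in WT and 6 per diet in NRF2 KO. The mice WT_CON_7604 and WT_MR_7612, which the study left out as outliers, were left out here too. Each library was a QuantSeq 3′ library, whose reads come from the 3′ ends of transcripts, and its counts do not grow with transcript length.

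mTOR works in 2 complexes. In mTORC1 it is bound by raptor, the product of Rptor, and in mTORC2 by rictor. mTORC1 is active at the lysosome when amino acids and insulin are plentiful, and it drives protein synthesis by phosphorylating S6 kinase 1 (Rps6kb1) and the 4E-binding proteins (Eif4ebp1, Eif4ebp2), which otherwise hold the cap-binding factor eIF4E in an inactive form. LARP1 binds mRNAs of the translation machinery under mTORC1 control. The TSC complex, with Tsc2 as its GTPase-activating subunit, restrains mTORC1, and sestrins (Sesn1, Sesn3) restrain it too. All of this control acts largely on proteins, and the present data hold mRNA only.

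The libraries held 6197291 to 22068338 counts in the 22 mice. All 8 hepatocyte markers examined were present, with a summed level of 72341 to 124056 counts scaled to library size by TMM (CPM). The Nfe2l2 count was higher, not lower, in NRF2 KO mice. It stood at 94.0 to 125 CPM in 9 of the 10 WT mice. In the 12 NRF2 KO mice it stood at 202 to 339 CPM. By test it was 1.78-fold higher in NRF2 KO on Con, with all WT Con mice included (adjusted p = 0.045, edgeR). On MR it was 2.26-fold higher in NRF2 KO (adjusted p = 0.0035, edgeR). A count at the 3′ end need not cover the excised part, so that it does not show whether that part was lost. The library labelled WT_CON_7607 had 324 CPM, which goes against its label, so WT Con results were also computed without it. Its Sesn3 level of 15.7 CPM and its score of clock genes of 1.81, both described below, lay in the range of the other WT Con mice and above every NRF2 KO Con mouse. Its Rictor level (16.8 CPM) was above, and its Mtor level (19.4 CPM) below, every other mouse of WT Con and NRF2 KO Con. None of these Sesn3, clock, Rictor and Mtor values is a marker of the genotype, and whether the label is right was not tested.

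The RefSeq sequences (GRCm38.p6) around the start sites of the sestrin genes Sesn1 and Sesn3 are shown, 250 bases before the start and 50 after. The Sesn1 window lies at chr10:41810324-41810623 and the Sesn3 window at chr9:14276051-14276350, both on the plus strand. Capitals mark the single match found in the 10 windows of the 9 matched genes to any of 4 motifs, searched on both strands: GTAAACA (FOXO, factors known to induce sestrins), CACGTG (E-box), TTGCATCA (ATF4 with C/EBP) and TGACGTCA (CRE). The 2 palindromes read alike on both strands.
Sesn1: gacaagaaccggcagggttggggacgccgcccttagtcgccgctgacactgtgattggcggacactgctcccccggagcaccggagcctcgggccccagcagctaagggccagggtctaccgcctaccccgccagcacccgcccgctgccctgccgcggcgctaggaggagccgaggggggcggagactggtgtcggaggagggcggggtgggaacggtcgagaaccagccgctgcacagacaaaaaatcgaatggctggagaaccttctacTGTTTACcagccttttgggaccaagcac
Sesn3: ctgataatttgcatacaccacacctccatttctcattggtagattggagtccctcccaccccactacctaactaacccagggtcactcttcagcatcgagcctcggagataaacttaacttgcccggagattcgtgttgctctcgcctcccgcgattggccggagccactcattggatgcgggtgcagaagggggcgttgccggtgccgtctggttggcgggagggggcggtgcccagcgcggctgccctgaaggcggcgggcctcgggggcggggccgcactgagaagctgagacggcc
The match in the Sesn1 window is the reverse complement of the FOXO motif and begins 22 bases after the start site. Of 32851 promoter windows of the same length in the mouse table, 3.65% held the FOXO motif, 7.15% the E-box, 0.895% the ATF4 motif and 1.79% the CRE. The other Sesn1 window, at a second start site at chr10:41887189-41887488, held none of them, nor did the Sesn3 window. No window of Eif4ebp1 was matched. Whether any of these motifs bears on the levels described below was not tested.

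On MR, Eif4ebp1 mRNA rose in both genotypes and Sesn3 mRNA fell in WT mice, while 6 of the 10 genes passed no test for the diet. In WT mice 2 of the 10 genes passed the test, 1 higher (Eif4ebp1) and 1 lower (Sesn3), and in NRF2 KO mice 2 passed, both higher (Eif4ebp1 and Rictor). Averaged over the genotypes, 4 passed: Eif4ebp1, Rictor and Rps6kb1 were higher and Sesn3 was lower. A gene passed at an adjusted p under 0.05, from the quasi-likelihood F-test of edgeR on the counts, adjusted over all 13336 genes by the Benjamini-Hochberg method. Of all genes tested, 13.8% passed in WT (6.91% higher, 6.91% lower), 12.6% in NRF2 KO (6.23% higher, 6.34% lower) and 27.4% for the average (13.3% higher, 14.1% lower). The counts of 2 and 4 of 10 lie near these shares. The median log2 fold change of the 10 genes was 0.14 in WT, 0.17 in NRF2 KO and 0.15 for the average, beside -0.01, 0.00 and -0.01 over all genes. In whole liver, fewer cells of a type and less RNA per cell cannot be told apart.

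**Figure D1:**
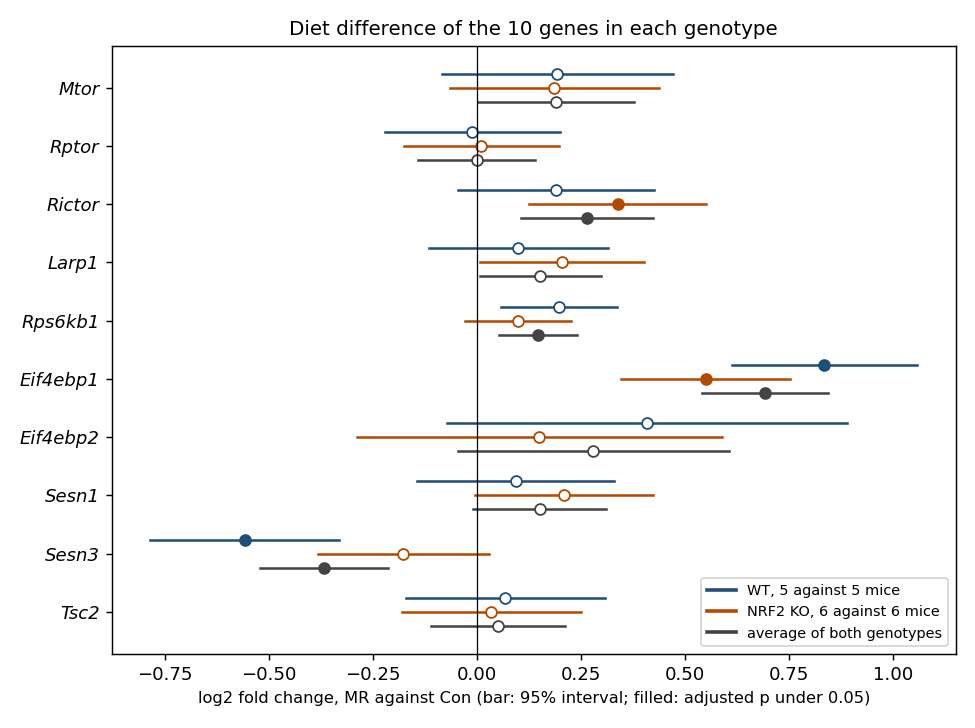
Log2 fold change of MR against Con for each of the 10 genes, in WT mice, in NRF2 KO mice and averaged over both. Bars are 95% intervals of the edgeR model and filled points passed an adjusted p of 0.05. Eif4ebp1 lies to the right of 0 in both genotypes and Sesn3 to the left, and the intervals of Rptor and Tsc2 cross 0.

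Eif4ebp1 (ENSMUSG00000031490, chr8:27260329-27276674 on GRCm38, plus strand, 3 exons) encodes 4E-BP1, the translational repressor that mTORC1 switches off. In the 5 WT Con mice it stood at 54.0, 51.7, 46.2, 42.6 and 54.4 CPM. In the 5 WT MR mice it stood at 85.3, 74.9, 106, 90.6 and 87.3 CPM. Every WT MR mouse lay above every WT Con mouse, as was the case for 5.32% of all genes tested. The mean rose from 49.8 ± 5.16 CPM (SD, n = 5) to 88.9 ± 11.4 CPM (SD, n = 5), a 1.78-fold difference, or 0.83 in log2 (standard error 0.11, adjusted p = 2.8e-05, edgeR).

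In NRF2 KO mice Eif4ebp1 ran from 45.8 to 65.1 CPM on Con with a median of 53.7, and from 63.9 to 90.8 CPM on MR with a median of 84.9. A single MR mouse, KO_MR_7628, lay inside the Con range. The means were 55.0 ± 6.64 (SD, n = 6) and 80.3 ± 10.7 CPM (SD, n = 6), a 1.46-fold rise, or 0.55 in log2 (standard error 0.10, adjusted p = 7.5e-04, edgeR). In order of level, WT Con was lowest, then NRF2 KO Con, NRF2 KO MR and WT MR. The genotypes did not differ by test on Con (log2 fold change 0.14, 95% interval -0.07 to 0.35, adjusted p = 0.58, edgeR) or on MR (-0.14, interval -0.36 to 0.07, adjusted p = 0.58, edgeR). The rise was smaller in NRF2 KO by 0.29 on the log2 scale, a difference that did not pass the test (interaction -0.29, 95% interval -0.59 to 0.01, adjusted p = 0.68, edgeR).

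For the averaged diet comparison Eif4ebp1 was 36th of all genes by p (log2 fold change 0.69, standard error 0.07, adjusted p = 3.8e-07, edgeR). The call in each genotype was kept without any single mouse, with 0.76 to 0.89 in WT and 0.50 to 0.61 in NRF2 KO. With WT_CON_7607 removed the WT value was 0.79. Of the mice left out, WT_CON_7604 stood at 75.8 CPM, within the range of the WT MR mice, and WT_MR_7612 at 118 CPM, on a scale set over all 24 mice.

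The genes most like Eif4ebp1 across the 22 mice were Iars (Pearson r of log2 CPM 0.95), Marchf5 (0.93), Gars (0.92), Hspa9 (0.92) and Eif4g2 (0.92). Iars and Gars encode aminoacyl-tRNA synthetases, for isoleucine and glycine, Hspa9 encodes the mitochondrial chaperone mortalin, and Eif4g2 a translation initiation factor. Their averaged log2 fold changes on MR were 0.62 for Iars, 0.33 for Marchf5, 0.82 for Gars, 0.58 for Hspa9 and 0.35 for Eif4g2. The points share the diet groups and their library scaling, so that these r values are a description.

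Eif4ebp2 (ENSMUSG00000020091, chr10:61428491-61452661, minus strand) encodes 4E-BP2, the other 4E-binding protein measured here. In WT mice it had 75.5, 109, 129, 109 and 123 CPM on Con and 149, 109, 134, 166 and 168 CPM on MR, with 4 of the 5 MR mice above every Con mouse. Its log2 fold change of 0.41 came with a standard error of 0.23 (adjusted p = 0.26, edgeR). NRF2 KO Con mice spread from 39.0 to 145 CPM (median 97.4) and NRF2 KO MR mice from 89.2 to 124 CPM (median 106), a log2 fold change of 0.15 ± 0.21 (standard error). The 95% interval of the averaged value, -0.05 to 0.60, takes in both no change and the rise of Eif4ebp1 in NRF2 KO. Between the genotypes on MR, Eif4ebp2 had a log2 fold change of -0.42 (interval -0.88 to 0.04, adjusted p = 0.41, edgeR), which passed the test in a fit of those 2 groups alone.

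Sesn3 (ENSMUSG00000032009, chr9:14275067-14333101, plus strand, 10 exons) encodes sestrin 3, a stress-inducible inhibitor of mTORC1 that acts through GATOR2. WT Con mice stood at 17.2, 16.5, 17.8, 15.7 and 14.5 CPM. WT MR mice stood at 10.2, 10.9, 11.4, 12.1 and 11.1 CPM. All 5 WT MR mice lay below all 5 WT Con mice, as did 4.00% of all genes tested. The means were 16.3 ± 1.31 (SD, n = 5) and 11.1 ± 0.694 CPM (SD, n = 5), with a log2 difference of -0.56 (standard error 0.11, adjusted p = 0.0016, edgeR).

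In NRF2 KO mice Sesn3 ran from 8.90 to 14.7 CPM on Con (median 12.995) and on MR from 9.33 to 12.2 CPM (median 11.8), and the ranges overlapped. The diet difference was -0.18 in log2 (standard error 0.10, 95% interval -0.38 to 0.03, adjusted p = 0.26, edgeR). Without KO_CON_7622, the Con mouse at 8.90 CPM, it was -0.26 and passed (adjusted p = 0.042, edgeR). No gene of the 10 separated the NRF2 KO diet groups fully, as 5.45% of all genes did. The averaged value was -0.37 (standard error 0.07, adjusted p = 7.1e-04, edgeR), and it was called without any single mouse, at -0.41 to -0.34.

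Among the 10 genes, Sesn3 had the lowest p both for the genotype on Con and for the interaction. On Con it was lower in NRF2 KO by a log2 fold change of -0.35 (95% interval -0.56 to -0.14), with an unadjusted p of 0.0021 and an adjusted p of 0.076 in edgeR's test. Only the highest NRF2 KO Con mouse, at 14.7 CPM, reached into the WT Con range. Without KO_CON_7617 that difference was -0.41 and passed the test (adjusted p = 0.046, edgeR), and without the library labelled WT_CON_7607 it was -0.37 (adjusted p = 0.088, edgeR). The diet effect was 0.38 weaker in NRF2 KO on the log2 scale (interaction 0.38, 95% interval 0.07 to 0.69, unadjusted p = 0.017, adjusted p = 0.51, edgeR). On MR the genotypes lay at nearly the same level, with a log2 fold change of 0.03 (interval -0.19 to 0.25).

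**Figure D2:**
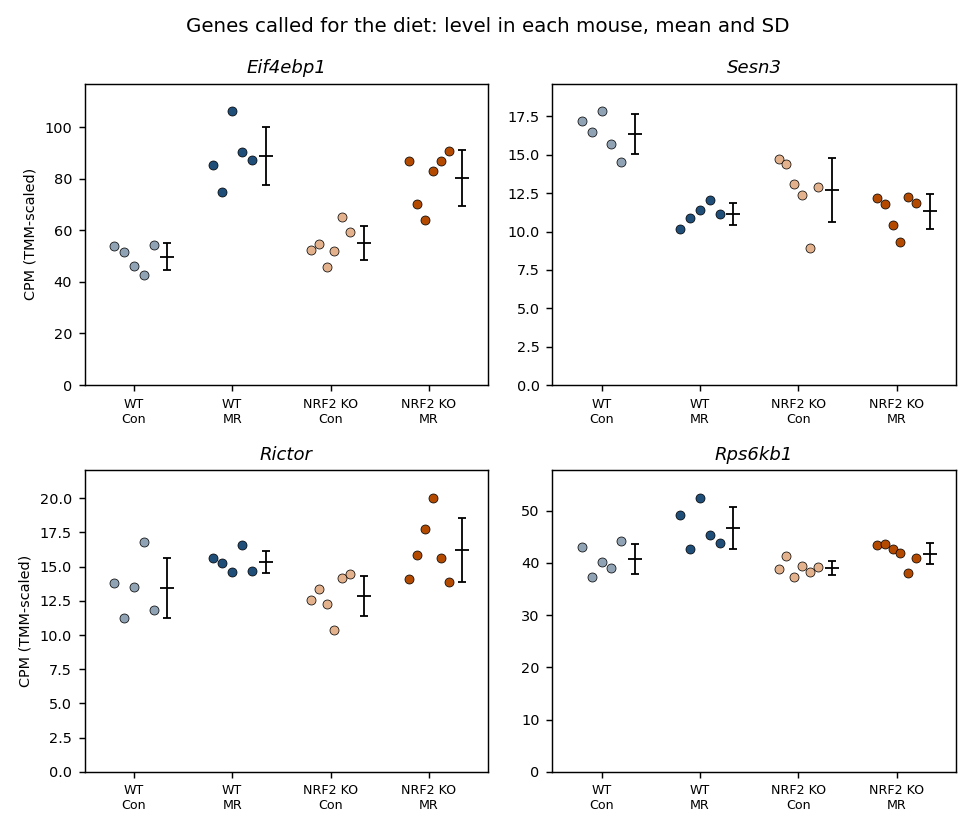
Level of the 4 genes that passed the test for the diet in at least 1 comparison, as TMM-scaled CPM in each mouse, with the group mean and SD beside the points. The WT Con and WT MR mice do not overlap for Eif4ebp1 (42.6 to 54.4 against 74.9 to 106 CPM) and Sesn3 (14.5 to 17.8 against 10.2 to 12.1 CPM), and they do for Rictor and Rps6kb1.

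The groups also differed in a score of circadian clock genes. It was formed in each mouse as the mean standardized log2 CPM of Arntl, Npas2, Clock, Cry1 and Nfil3 minus that of Dbp, Tef, Per1, Per2, Per3, Nr1d1, Nr1d2 and Ciart. It ran from 0.84 to 4.14 in WT Con and from -0.90 to 1.48 in WT MR. In NRF2 KO it ran from -1.02 to -0.29 on Con and from -1.58 to -0.998 on MR. WT Con mice, highest in Sesn3, thus also had the highest scores, with 1 WT MR mouse above the lowest of them. With the score in the model the log2 fold change of Sesn3 on MR in WT was -0.41 (adjusted p = 0.12, edgeR) and the averaged value -0.27 (adjusted p = 0.085, edgeR), and both calls were lost. The Sesn3 difference between genotypes on Con was -0.16 with the score (adjusted p = 0.73, edgeR). The score differs between the groups themselves, so that its part and that of the diet cannot be told apart.

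**Figure D3:**
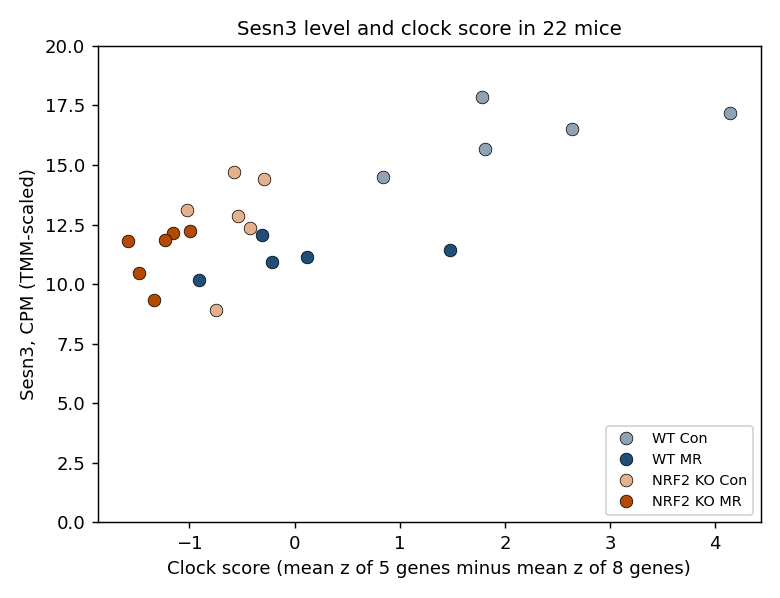
Sesn3 level (TMM-scaled CPM) against the clock score in 22 mice, with each group in its own colour. WT Con mice sit at scores of 0.84 to 4.14 with 14.5 to 17.8 CPM, and the other groups lie at lower scores apart from 1 WT MR mouse at 1.48.

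Markers of liver cells were examined beside these results. The 8 hepatocyte markers had a median sum of 102020 CPM in WT Con and 80225 CPM in WT MR, and of 115488 and 96669 CPM in NRF2 KO Con and MR. Of these 8 genes 3 had a log2 fold change above 0 in each genotype. In each genotype 1 passed as lower, beside 6.91% of all genes in WT and 6.34% in NRF2 KO. On MR the summed level of 5 bile duct markers lay below Con without overlap in both genotypes, at 20.9 to 28.3 against 49.0 to 72.6 CPM in WT and at 20.6 to 29.0 against 31.7 to 53.1 CPM in NRF2 KO. Taken singly, 4 of these 5 genes passed as lower in WT and 1 in NRF2 KO, beside 6.91% and 6.34% of all genes. Without overlap lay 2 of the 5 in WT and 1 in NRF2 KO. Of all genes 4.00% lay fully below in WT, and 5.45% lay apart in either direction in NRF2 KO. The 6 Kupffer cell markers summed to 213 to 241 CPM in WT MR and 261 to 368 CPM in WT Con, and the 7 stellate cell markers to 368 to 457 and 427 to 696 CPM. Taken singly, 3 of the 6 Kupffer markers passed as lower in WT and 0 in NRF2 KO. Of the 7 stellate markers 5 passed as lower in WT and 4 in NRF2 KO, beside the same 6.91% and 6.34% of all genes. Endothelial markers (7 genes) summed to 318 to 340 CPM in WT MR and 277 to 342 CPM in WT Con, lymphocyte markers (6 genes) to 5.73 to 7.17 and 6.00 to 9.18 CPM. In NRF2 KO the medians on Con and MR were 286 and 250 CPM for Kupffer, 508 and 453 for stellate, 333 and 348 for endothelial and 5.57 and 7.64 CPM for lymphocyte markers. No marker was at 0 in all mice of a group, and the part of these cells in the results was not tested.

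Sesn1 (ENSMUSG00000038332, chr10:41809935-41908424, plus strand) encodes sestrin 1, which like sestrin 2 can bind leucine. Its levels were low and close together: 7.31 to 10.5 CPM in WT Con, 7.86 to 9.71 CPM in WT MR, 6.73 to 8.45 CPM in NRF2 KO Con and 8.18 to 11.3 CPM in NRF2 KO MR. Neither diet difference passed the test, with log2 fold changes of 0.09 in WT (95% interval -0.14 to 0.33) and 0.21 in NRF2 KO (-0.01 to 0.42). The WT interval of Sesn1 lies wholly above that of Sesn3 (-0.79 to -0.33).

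Among the defining subunits, only Rictor passed a test. Rictor (ENSMUSG00000050310, chr15:6708379-6800401, plus strand) encodes the mTORC2 subunit needed for phosphorylation of AKT at its hydrophobic motif. NRF2 KO Con mice ran from 10.4 to 14.4 CPM (median 12.97) and NRF2 KO MR mice from 13.9 to 20.03 CPM (median 15.7), with 2 MR mice inside the Con range. The diet difference was 0.34 in log2 (standard error 0.10, adjusted p = 0.032, edgeR), and it no longer passed when any of 5 mice was left out (KO_MR_7628, KO_MR_7629, KO_CON_7617, KO_CON_7620, KO_CON_7621), with values down to 0.27. WT mice had 13.8, 11.3, 13.5, 16.8 and 11.9 CPM on Con and 15.6, 15.3, 14.6, 16.6 and 14.7 CPM on MR. The single WT Con mouse above the WT MR mice, at 16.8 CPM, was the library labelled WT_CON_7607. The WT value was 0.19 (standard error 0.11, adjusted p = 0.29, edgeR), and 0.28 without that library (adjusted p = 0.10, edgeR). The genotypes did not differ in the diet effect by test (interaction 0.15, 95% interval -0.17 to 0.47). The averaged value was 0.26 (adjusted p = 0.013, edgeR). With the clock score in the model Rictor passed neither in NRF2 KO (0.33, adjusted p = 0.057, edgeR) nor in the average (0.24, adjusted p = 0.16, edgeR).

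Rptor (ENSMUSG00000025583, chr11:119602905-119899576, plus strand), the mTORC1 scaffold that recruits substrates, was at 11.5 ± 1.01 and 11.4 ± 1.12 CPM (SD, n = 5 each) in WT on Con and MR. In NRF2 KO it was at 12.7 ± 1.70 and 12.8 ± 1.02 CPM (SD, n = 6 each). The averaged log2 fold change was 0.00 with a 95% interval of -0.14 to 0.14, and its sign changed with the scaling used. Mtor itself (ENSMUSG00000028991, chr4:148448611-148557683, plus strand) had 32.6, 26.6, 21.1, 19.4 and 23.3 CPM in WT Con and 31.8, 28.5, 25.4, 29.1 and 25.5 CPM in WT MR. Its log2 fold changes were alike in WT (0.19) and NRF2 KO (0.19), and the averaged 0.19 (95% interval 0.00 to 0.38) had an adjusted p of 0.13 in edgeR's test. It passed without WT_CON_7602 (0.25) or KO_CON_7622, with library size only (0.32, adjusted p = 0.013, edgeR) and with quality weights over all 24 mice (0.26, adjusted p = 0.016, limma). The Con groups were the more variable, with 19.4 to 32.6 CPM in WT and 20.4 to 35.1 CPM in NRF2 KO.

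Rps6kb1 passed for the average of the genotypes, and Larp1 and Tsc2 did not. Rps6kb1 (ENSMUSG00000020516, chr11:86498871-86544805, minus strand), the S6 kinase 1 gene, had 43.1, 37.3, 40.1, 38.9 and 44.2 CPM in WT Con and 49.1, 42.7, 52.5, 45.4 and 43.8 CPM in WT MR, and 2 Con mice overlapped the MR range. Its averaged log2 fold change on MR was 0.15, a 10.7% higher level (standard error 0.05, adjusted p = 0.019, edgeR), and it was called without any single mouse. The WT value of 0.20 (adjusted p = 0.054) and the NRF2 KO value of 0.10 (adjusted p = 0.33) did not pass edgeR's test, though the WT value passed without WT_CON_7602, WT_CON_7608 or WT_MR_7611 (lowest adjusted p = 0.038). It passed too with library size only, with DESeq2 and over all 24 mice without or with quality weights (adjusted p = 0.031 to 0.0497). The WT value did not pass in 19 of the 22 fits with 1 mouse left out (highest adjusted p = 0.16, edgeR). Without WT_CON_7607 it had an adjusted p of 0.11 in edgeR's test. In the fit of the WT groups alone and with the clock score its adjusted p was 0.14 (edgeR). With the clock score in the model the averaged value was 0.17 (adjusted p = 0.073, edgeR). On MR, Rps6kb1 was the only gene of the 10 with an unadjusted p under 0.05 between genotypes (log2 fold change -0.16, unadjusted p = 0.020, adjusted p = 0.24, edgeR). The last exon of Rps6kb1 overlaps the gene Rnft1 on the other strand by 155 bases, and whether the counting used strand is not given in the sources used here.

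Larp1 (ENSMUSG00000037331, chr11:58009064-58062034, plus strand) did not pass in either genotype, with log2 fold changes of 0.10 (standard error 0.10) in WT and 0.20 (standard error 0.10) in NRF2 KO. Its intervals were -0.12 to 0.31 and 0.01 to 0.40. In NRF2 KO the MR mice were the more uniform, at 168 to 195 CPM beside 135 to 179 CPM on Con. With the clock score in the model Larp1 passed in WT (0.45, adjusted p = 0.030, edgeR) and in NRF2 KO (0.31, adjusted p = 0.015, edgeR). Tsc2 (ENSMUSG00000002496, chr17:24595816-24632630, minus strand) had group means of 8.55 to 9.28 CPM and an averaged log2 fold change of 0.05 (95% interval -0.11 to 0.21). Its last exon of 830 bases shares 572 with Pkd1 on the other strand, so that its counts are uncertain if strand was not used.

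**Figure D4:**
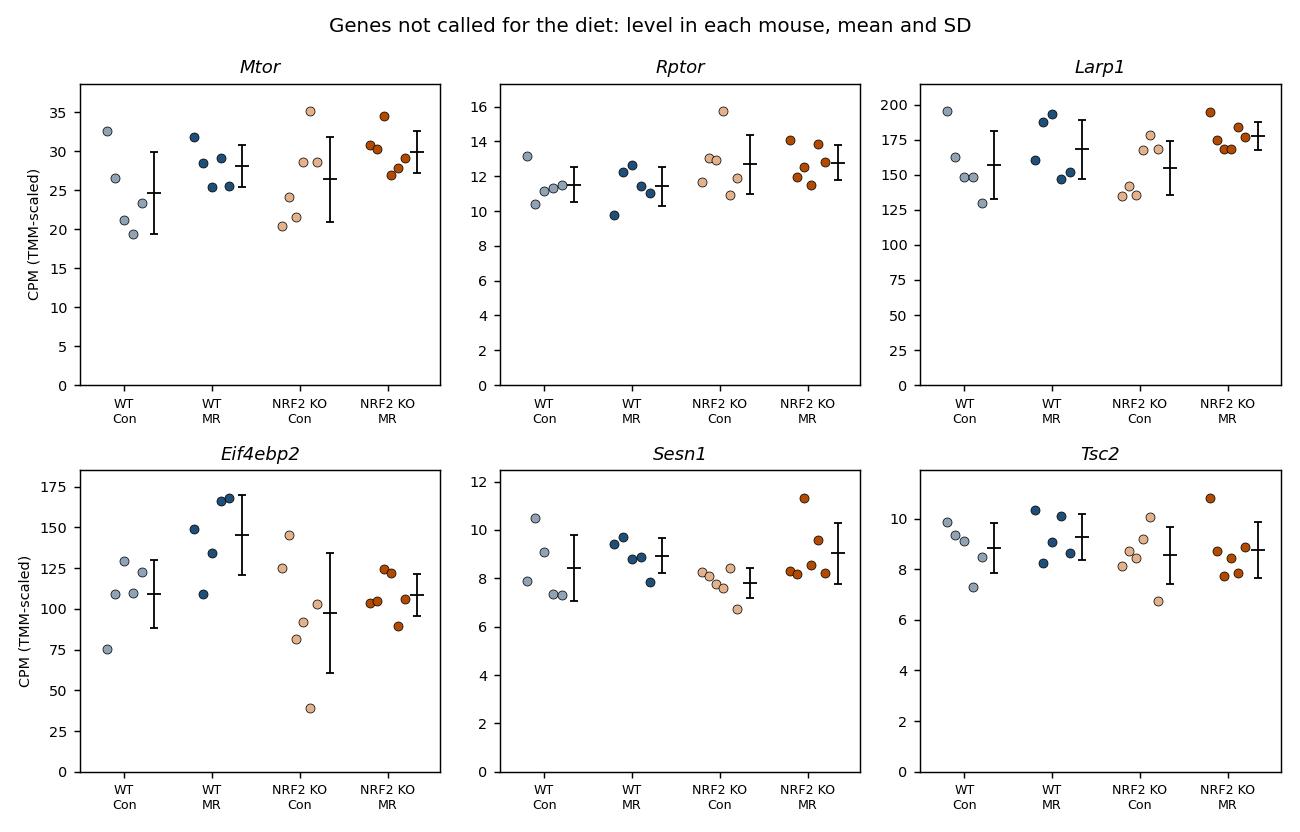
Level of the 6 genes that passed no test for the diet, as TMM-scaled CPM in each mouse, with the group mean and SD. The diet groups overlap within each genotype for all 6, with the widest spread for Eif4ebp2 in NRF2 KO Con (39.0 to 145 CPM).

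No gene of the 10 passed the test between genotypes on either diet, a count near the small shares of all genes that passed. On Con 0 of 10 passed, beside 2.07% of all genes, and 1 (Sesn3) had an unadjusted p under 0.05, beside 14.4% of all genes. On MR 0 of 10 passed, beside 1.93%, and 1 (Rps6kb1) had an unadjusted p under 0.05, beside 13.9%. For the interaction 0 of 10 passed, beside 0.0450%, and 1 (Sesn3) had an unadjusted p under 0.05, beside 7.56%. DESeq2 called 1 of the 10 on Con (Sesn3) and 0 on MR and for the interaction. These comparisons share mice with each other and with the diet comparisons. Apart from Eif4ebp2 and Sesn3, no bound of a 95% interval for a genotype difference lay beyond 0.364 in size on either diet.

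Within groups the 10 genes did not vary as a unit. Over the 45 pairs, the correlation of log2 CPM after removal of group means had a median of -0.02 and ran from -0.66 (Larp1 with Eif4ebp2) to 0.61 (Mtor with Larp1). Eif4ebp2 also ran against Mtor (-0.56) and with Sesn3 (0.56). These are correlations over the same 22 libraries and their scaling and are given as a description.

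The wider pathway was taken as 97 genes in 9 lists, of which 94 were tested. On MR averaged over genotypes 25 rose and 7 fell, 32 of 94 beside 27.4% of all genes (13.3% higher, 14.1% lower). In WT 12 rose and 3 fell, and in NRF2 KO 12 rose and none of the 94 fell. Of all genes 6.91% rose and 6.91% fell in WT, and 6.23% rose and 6.34% fell in NRF2 KO. Of 12 genes of the Rag GTPases and Ragulator, which bring mTORC1 to the lysosome, 6 rose and 2 fell in the average. Rragc, a GTPase subunit of the Rag heterodimer, rose by a log2 fold change of 0.36 (adjusted p = 2.1e-04, edgeR). Fnip1 (0.31) and Flcn (0.31), which together form the GTPase-activating complex for RagC, rose too, as did the Ragulator anchor Lamtor1 (0.20). Averaged values of the 12 genes ran from -0.48 to 0.36, so that the largest in size was a lower level. The 2 genes that fell are not named, because they were not among the 20 genes of lowest averaged p. Of 14 tested subunits of the lysosomal proton pump (v-ATPase) 7 rose, among them Atp6v1a (0.32), Atp6ap2 (0.40), Atp6v1c1 (0.25), Atp6v1g1 (0.30) and Atp6v1e1 (0.17), and 1 fell. Averaged values of these 14 ran from -0.18 to 0.40.

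Of 15 genes between the insulin receptor and AKT 6 rose and 1 fell in the average, for which 13.3% of all genes rose and 14.1% fell. Trib3, a pseudokinase that binds AKT and is a target of the integrated stress response, had the largest averaged change of the named genes at 1.04 (adjusted p = 3.9e-06, edgeR). Its mean went from 17.2 ± 4.02 to 31.0 ± 5.63 CPM in WT (SD, n = 5 each) and from 9.52 ± 2.60 to 22.2 ± 3.94 CPM in NRF2 KO (SD, n = 6 each). Irs2, the insulin receptor substrate induced in the fasted liver, rose by 1.06 in NRF2 KO (adjusted p = 6.0e-04, edgeR) and had 0.24 in WT (adjusted p = 0.44, edgeR), with an interaction of 0.81 that did not pass (adjusted p = 0.42, edgeR). Sgk2 (0.51), Insr (0.25) and Akt1 (0.18) rose in the average. Prkaa2, the catalytic α2 subunit of the energy sensor AMPK, rose by 0.61 in WT (36.5 ± 1.46 to 55.7 ± 5.94 CPM, SD, n = 5 each, adjusted p = 6.7e-05, edgeR) and had 0.20 in NRF2 KO (adjusted p = 0.092, edgeR). Its interaction was -0.41 (adjusted p = 0.31, edgeR), and on MR it was lower in NRF2 KO (-0.36, adjusted p = 0.015, edgeR). Prkab1, an AMPK β subunit, rose in the average (0.29).

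Of 8 other subunits of the mTOR complexes 2 passed in the average, near the share of 27.4% of all genes. Deptor, an inhibitor bound to mTOR, rose by 0.25 and Mlst8, a subunit of both complexes, fell by 0.27 on the log2 scale. Deptor had 0.42 in WT (adjusted p = 0.0052, edgeR) and 0.08 in NRF2 KO (adjusted p = 0.60, edgeR). Its interaction of -0.34 did not pass (adjusted p = 0.51, edgeR). Mlst8 had -0.29 in WT and -0.24 in NRF2 KO. Of 13 tested effectors 1 fell and none of the 13 rose in the average, beside 14.1% and 13.3% of all genes. The gene that fell was Pdcd4, an inhibitor of eIF4A that S6 kinase marks for degradation, at -0.48. Of 5 amino acid sensors none passed in the average, with 0.15 for Sesn2, 0.07 for Castor1, -0.18 for Castor2, 0.08 for Bmt2 (the S-adenosylmethionine sensor SAMTOR) and 0.20 for Lars. Castor2, an arginine sensor subunit at 1.79 to 2.98 CPM on average per group, fell in WT (-0.71, adjusted p = 0.033, edgeR) and had 0.34 in NRF2 KO (adjusted p = 0.26, edgeR), with an interaction of 1.05 (adjusted p = 0.30, edgeR).

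In the TSC and Rheb list Rheb, the GTPase that activates mTORC1, rose (0.24, adjusted p = 0.0037, edgeR) and Ddit4l, an mTORC1 inhibitor related to REDD1, fell (-0.67, adjusted p = 0.019, edgeR). Ddit4l had 3.34 ± 1.403 CPM in WT Con (SD, n = 5) and 1.25 to 1.45 CPM on average in the other 3 groups. The remaining members of that list did not pass: Ddit4 (0.58), Tsc1 (0.11), Tbc1d7 (-0.03) and Rhebl1 (-0.14). Between genotypes 5 of the 94 passed on Con, Eef2k and Lpin1 higher and Ddit4l, Sgk2 and Trib3 lower in NRF2 KO, and 2 on MR, Prr5 and Prkaa2, both lower. Of all genes 2.07% passed on Con and 1.93% on MR. Eef2k, Lpin1 and Prr5 are named after their values were seen. With the clock score in the model 19 of the 94 passed for the averaged diet comparison, beside 16.6% of all genes.

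**Figure D5:**
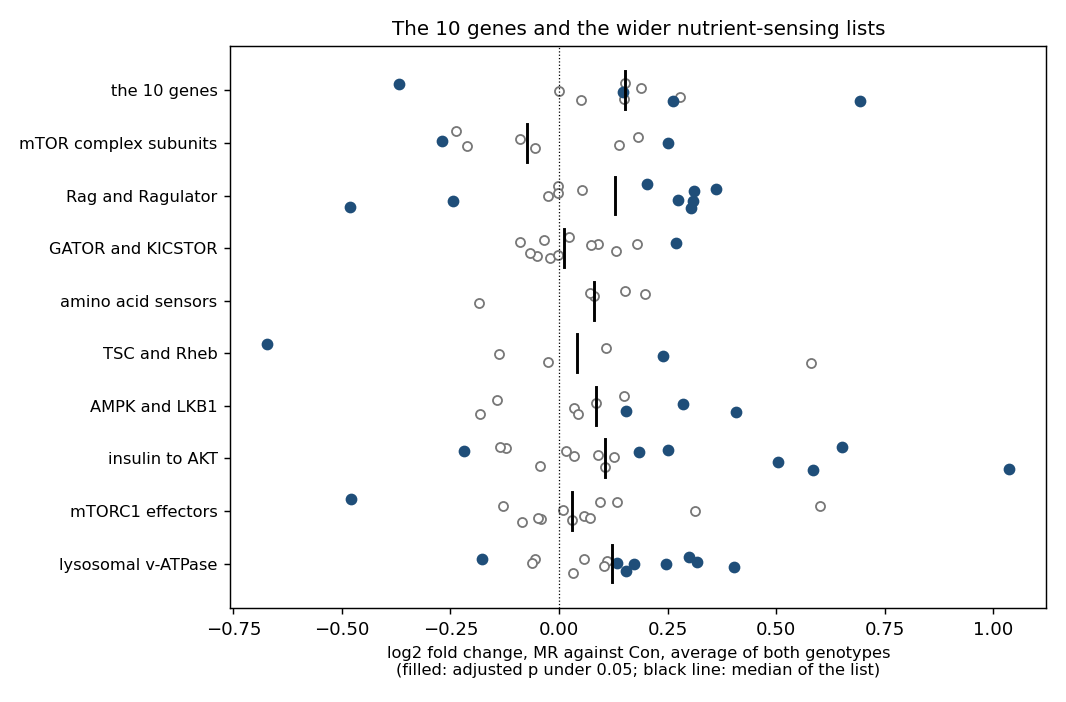
Averaged log2 fold change of MR against Con for the 10 genes and for each gene of the 9 wider lists, with genes that passed an adjusted p of 0.05 filled and the median of each list as a black line. Filled points lie on both sides of 0 in the Rag and Ragulator list (6 higher, 2 lower) and the v-ATPase list (7 higher, 1 lower), and none of the 5 amino acid sensors is filled. Of all genes 13.3% passed as higher and 14.1% as lower.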

How the data were processed

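Liver RNA was sequenced as QuantSeq 3′ libraries, 1 per mouse, in 24 mice. The count values are raw reads per gene as deposited by the authors, made with the kit maker's commercial pipeline; the aligner and annotation are not given in the sources used here, and the submitters' processing notes name GRCm38, R 3.4.3 and DESeq2 1.18.1. The authors also deposited normalized signal values, which are the counts over a size factor from DESeq2, and these served in an alternative.

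Counts of 22 mice were fitted in R 4.3.3 with edgeR 4.0.16 (TMM, filter by expression, robust quasi-likelihood F-tests, 4 group means), which kept 13336 of 15160 genes. Comparisons were MR against Con in each genotype and averaged, NRF2 KO against WT on each diet, and the interaction. P-values were adjusted by the Benjamini-Hochberg method over all genes, and a gene passed at an adjusted p under 0.05. P-values weigh a group difference against the spread between mice, estimated over the 4 groups. Depth is given with the results. Standard errors give the precision of the estimates, and SDs the spread between mice.

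The 10 genes, the lists and the alternatives were chosen with earlier results of these data known. All 10 genes are named, with up to 20 genes of the wider lists that passed for the diet, ordered by the averaged p, all amino acid sensors, the TSC and Rheb list, and the 5 genes most correlated with the gene of smallest p. Positions are from GENCODE M21 and promoter windows from RefSeq (GRCm38.p6). Alternatives were scaling by library size or by DESeq2 size factors, no filter on low counts, at least 10 counts in every mouse, limma 3.58.1 on log2(normalized value + 1), DESeq2 1.42.0, separate fits of each pair of groups, all 24 mice with or without quality weights, a clock score as covariate, and each mouse left out. Figures were drawn with matplotlib 3.10.9.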

Additional observations from a re-analysis of the deposited data

Results flagged for a closer look

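Of 164 groups of 5 or 6 mice examined for the 10 genes, Nfe2l2 and the named genes of the wider lists, 7 held a mouse set apart from the others of its group by Dixon's test, and chance flags about 1 in 20 groups. Of the 10 genes this touched Tsc2 in NRF2 KO MR, where KO_MR_7625 had 10.8 CPM and the other mice 7.74 to 8.89 CPM. For Nfe2l2 in WT Con it was the library labelled WT_CON_7607, at 324 CPM beside 106 to 125 CPM in the other mice. In the wider lists Prkaa2 stood at 66.0 CPM in WT_MR_7613 (others 52.0 to 55.9 CPM). In KO_CON_7621 Fnip1 was lowest at 65.2 CPM (others 73.1 to 77.4 CPM) and Atp6v1e1 highest at 167 CPM (others 135 to 147 CPM). Castor2 was lowest in KO_MR_7632 at 2.04 CPM (others 2.69 to 2.96 CPM), and Ddit4l was highest in KO_MR_7627 at 2.24 CPM (others 1.00 to 1.43 CPM).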

How the results depend on the processing

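Eif4ebp1 passed in WT, in NRF2 KO and in the average under every alternative run. For MR in NRF2 KO, 5 of the 10 genes passed with library size only and 4 over all 24 mice with quality weights, and 1 to 3 with each mouse left out. In the average 7 passed with library size only and 2 with the clock score. On Con between genotypes 1 gene (Sesn3) passed with library size only and 1 with DESeq2, and 0 to 1 with each mouse left out; on MR 1 (Eif4ebp2) passed in the fit of the groups compared. The wider lists had 32 genes in the average, 19 with the clock score and 48 with library size only. Library size only moved the median of all genes by 0.16 in NRF2 KO and 0.12 in the average, with 2397 genes higher and 388 lower in NRF2 KO beside 831 and 846; relative to that median Eif4ebp1 had 0.55 in NRF2 KO and Sesn3 -0.35 in the average. Over all genes, counts that moved by more than 1.5 times under the other settings were 1843 in WT to 1142 with the clock score, 1677 in NRF2 KO to 2785 with library size only and 2693 with quality weights, 3648 in the average to 2219 with the clock score, 276 on Con to 99 in the fit of the groups compared, 444 with DESeq2 and 23 with the clock score, 258 on MR to 600, 496 and 124 in the same order and 604 with quality weights, and 6 for the interaction to 36 with DESeq2. With each mouse left out, 181 to 314 genes passed on Con, with the fewest without WT_CON_7603, and 3 to 12 for the interaction, with the most without WT_CON_7607.

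Signs turned for Rptor and, in NRF2 KO, for Tsc2, whose values lay near 0. They also turned for Eif4ebp2 in NRF2 KO, which had 0.15 with a standard error of 0.21. Rptor in WT had 0.0773 with library size only, 0.18 with the clock score and -0.0471 to 0.0432 with each mouse left out, and in NRF2 KO -0.0280 to 0.0809. Averaged, Rptor had 0.0010 with DESeq2 size factors, 0.12 with library size only, 0.0036 with all genes, 0.0055 with limma, 0.0029 with DESeq2, 0.0041 with quality weights, 0.13 with the clock score and -0.0198 to 0.0347 with each mouse left out. In NRF2 KO, Eif4ebp2 ran from -0.0131 to 0.30 and Tsc2 from -0.0369 to 0.0820 with each mouse left out. Causes were not tested. The paper describes the WT mice as floxed littermates, but the litter of each mouse is not given in the sources used here. No analysis paired by litter was therefore possible. Depth limits Sesn1 and Tsc2 most, with the lowest count at 59.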
